A study of Rattus norvegicus with 10 samples.

Results

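Cbr1, Cbr3 and Setd4 are 3 genes of 1 short stretch of rat chromosome 11, and their RNA was measured here in the rat submandibular gland, which makes much of the saliva. They were taken as every non-control probe whose gene symbol is one of these names, which gave 1 probe per gene, 3 of the 14711 named genes tested. The genes were chosen by the SHR minus WKY difference on these same arrays, where Cbr1 and Setd4 were much higher in SHR, so their differences are given below as descriptions without a test. Samples came from 5 spontaneously hypertensive rats (SHR), inbred animals whose blood pressure climbs without treatment, and 5 Wistar-Kyoto rats (WKY), the normotensive strain it is usually set against. All 10 animals were males aged 14 weeks, none had a treatment or engineered allele in the labels, and each gave 1 one-colour Agilent array of whole-gland RNA. SHR and WKY are separate inbred strains that differ at many loci besides those tied to blood pressure.

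Carbonyl reductases are short-chain dehydrogenases that use NADPH to turn aldehydes and ketones into alcohols. Cbr1 encodes the broadly acting cytosolic member, whose known substrates include quinones, lipid aldehydes from oxidised membranes, anthracycline drugs and prostaglandin E, which it converts to the F form. Cbr3 encodes a close relative with a narrower range of substrates, and in human cells it is known as a target of NRF2, the transcription factor of the oxidative stress response. Setd4 encodes a SET-domain protein of the lysine methyltransferase family and is not an oxidoreductase; what it shares with the other two is its place on the chromosome. In the RefSeq gene table for the rat genome assembly GRCr8, the genes run in the order Setd4, Cbr1, the Cbr1-like genes Cbr1l1, Cbr1l2 and Cbr1l3, and Cbr3, with 4 pseudogenes between them. Setd4 lies on the minus strand and Cbr1 on the plus strand, so the pair is arranged head to head, with 2381 bases between their annotated starts.

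The start regions are shown because the gene pair that was high in SHR is divergent, and because one Cbr1-like copy has nearly the same start region as Cbr1. Each RefSeq window runs from 250 bases before to 50 bases after the annotated start, is written 5′ to 3′ on the gene's own strand, and comes from the reference assembly, not from SHR or WKY DNA. The windows are Cbr1 at chr11:46346155-46346454 (plus strand), Cbr1l1 at chr11:46362345-46362644 (plus strand), Setd4 at chr11:46343975-46344274 (minus strand) and Cbr3 at chr11:46478045-46478344 (plus strand). Capitals mark every match to the motifs named after them.
Cbr1: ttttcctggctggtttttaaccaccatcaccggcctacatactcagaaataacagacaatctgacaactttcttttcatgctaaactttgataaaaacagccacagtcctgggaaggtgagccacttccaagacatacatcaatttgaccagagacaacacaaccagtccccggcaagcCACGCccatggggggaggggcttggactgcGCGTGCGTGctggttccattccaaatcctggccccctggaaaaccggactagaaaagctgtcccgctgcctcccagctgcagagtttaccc
Cbr1l1: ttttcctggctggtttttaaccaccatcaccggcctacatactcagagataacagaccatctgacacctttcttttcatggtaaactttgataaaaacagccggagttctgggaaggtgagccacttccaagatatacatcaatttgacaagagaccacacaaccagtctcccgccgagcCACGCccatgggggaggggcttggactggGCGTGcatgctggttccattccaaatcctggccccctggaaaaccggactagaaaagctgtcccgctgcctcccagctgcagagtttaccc
Setd4: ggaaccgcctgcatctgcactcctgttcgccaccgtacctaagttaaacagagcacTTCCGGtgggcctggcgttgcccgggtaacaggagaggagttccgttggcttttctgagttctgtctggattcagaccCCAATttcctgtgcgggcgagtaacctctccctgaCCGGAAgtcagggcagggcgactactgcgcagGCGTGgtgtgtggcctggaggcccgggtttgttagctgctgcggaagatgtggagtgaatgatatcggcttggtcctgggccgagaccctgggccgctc
Cbr3: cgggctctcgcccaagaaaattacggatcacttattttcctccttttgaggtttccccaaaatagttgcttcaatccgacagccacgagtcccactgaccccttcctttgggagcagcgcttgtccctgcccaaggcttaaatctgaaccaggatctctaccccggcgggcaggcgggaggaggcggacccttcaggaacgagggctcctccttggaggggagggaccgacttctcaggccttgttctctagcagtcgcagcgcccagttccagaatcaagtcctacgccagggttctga

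The motifs were picked after the sequences had been seen, and both strands were searched. GCGTG, the core of the element bound by the aryl hydrocarbon receptor, was found at 3 places in the Cbr1 window, of which 2 on the plus strand overlap by 1 base. It was found at 2 places in the Cbr1l1 window and 1 in the Setd4 window, and 29.7% of all 33469 RefSeq windows of this length hold it. The Setd4 window also held 1 CCAAT (in 37.5% of all windows) and 2 matches of CCGGAA, the core of ETS factor sites (15% of all windows). TGACNNNGC, the antioxidant element core (12.1%), the GC box GGGCGG (33.1%) and TATAAA (14.2%) were not found in these 4 windows, and the Cbr3 window held none of the 6 motifs. A match describes letters in a window and is neither a binding site nor a cause of a level. GC content was 51.7% with 8 CpG in the Cbr1 window, 60.3% with 18 in that of Setd4 and 57.3% with 15 in that of Cbr3, against medians of 51.7% and 7 over all windows. Over 299 aligned bases the Cbr1 and Cbr1l1 windows were 95.3% identical. The Cbr1l2 window, not shown, aligned with that of Cbr1 over 101 bases and was 96% identical there. These are the last bases of the Cbr1l2 window and the first of the Cbr1 window, so the windows mostly cover different stretches. The Cbr1l2 window held 1 match of TGACNNNGC, ahead of the aligned bases. The Cbr1 window does not reach that far, and bases before it were not searched. The Cbr1l3 window, also not shown, held 1 match of CCGGAA.

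The arrays read 42877 spots each, with 0 saturated and 94.8% to 97.7% well above background. The 75th percentile of the processed intensity, which was used to scale each array, lay between 333 (SHR 3-3) and 648 (SHR 3-1). Array names join the strain with the numbers in its sample title, and precision is limited by the small number of arrays. By the scan times in the file headers the arrays fell into 3 scan runs, taken as slides: slide 1 held SHR 2-3, 3-1, 3-3 and 3-4, slide 2 held SHR 2-1 with WKY 1-5, 4-1 and 4-2, and slide 3 held WKY 1-2 and 1-3. Only slide 2 holds both strains, so for the other arrays slide and strain cannot be told apart. With the slide as a block in the fit, the strain difference is therefore that of slide 2, with SHR 2-1 as its only SHR array. Of the markers of the gland's own cells that were on the array, 5 of 5 for acinar cells and 4 of 4 for granular and striated duct cells were well above background on every array. The summed level of these markers overlapped between strains, at 95.6 to 121 times the 75th percentile in SHR and 81.6 to 104 in WKY for acinar cells, and at 210 to 356 in SHR and 233 to 259 in WKY for duct cells. The acinar sum hides members that go the other way: Smgc, submandibular gland protein C, lay at −2.25 to −0.77 (log2 relative to the 75th percentile) in SHR and 1.55 to 3.42 in WKY, and Cyss, cystatin S, at −3.16 to −1.47 in SHR and 0.94 to 2.27 in WKY, with no overlap. The 3 macrophage markers (Cd68, Aif1 and Csf1r) were the set whose sums did not overlap, at 3.13 to 5.48 in SHR and 6.43 to 8.11 in WKY. Cd68 and Aif1 were each lower in SHR without overlap. Csf1r did overlap, at −1.39 to −0.58 (log2) in SHR and −0.98 to −0.76 in WKY. Among the duct markers Klk1 was the brightest and weighs most in their sum, at 7.66 to 8.29 (log2) in SHR and 7.57 to 7.72 in WKY. Egf ranged from 0.73 to 5.86 in SHR and from 4.56 to 5.38 in WKY. Krt7 ranged from −0.14 to 2.33 in SHR and from 1.34 to 1.54 in WKY. The part of these acinar, duct and macrophage markers in the differences below was not tested. Liver markers, from an organ rich in Cbr1, summed to 0.330 to 0.403 in SHR and 0.316 to 0.383 in WKY, and albumin (Alb) was above background on 1 of 5 SHR and 4 of 5 WKY arrays.

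Cbr1, as read by 1 spot of 1 probe, was far higher in every SHR gland than in any WKY gland. Its probe (A_64_P036352) had a processed intensity of 2023, 2506, 2302, 1910 and 1740 in SHR 2-1, 2-3, 3-1, 3-3 and 3-4. In WKY 1-2, 1-3, 1-5, 4-1 and 4-2 the Cbr1 intensity was 28.1, 32.0, 26.3, 32.9 and 40.5. The dimmest SHR array was thus many times brighter than the brightest WKY array, before any scaling. In units of each array's 75th percentile, the Cbr1 spot stood at 355% to 573% in SHR and at 4.37% to 7.42% in WKY. WKY spots were low but not dark: the Cbr1 spot was well above background on all 5, with a raw median 2.76 to 3.80 times the local background, against 101 to 136 times in SHR.

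On the log2 scale relative to the 75th percentile, Cbr1 averaged 2.07 ± 0.26 in SHR and −4.09 ± 0.30 in WKY (SD, n = 5 each). The difference was 6.16 ± 0.16 (SE from limma), or 71.6-fold, and the lowest SHR array lay 5.58 above the highest WKY array. The rise ranked 1 among all 14711 genes, which restates how the gene was chosen. Within a strain the Cbr1 spot varied little: the highest SHR array was 1.61-fold above the lowest, and in WKY the same spread was 1.70-fold. The difference was 6.25 within slide 2 and 6.20 in the authors' deposited log2 values, where Cbr1 averaged 11.07 ± 0.19 in SHR and 4.87 ± 0.26 in WKY. With normexp background correction of the median spot signal, an offset of 50 added to every spot and then quantile normalisation, the Cbr1 difference was 4.65, or 25.1-fold; with quantile normalisation alone it was 6.21. Which of the other changed steps lowers the value was not tested. The separation of the strains was present in the uncorrected pixels. In whole-gland RNA, a change in the number of cells that express a gene and a change in RNA per cell cannot be told apart.

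**Figure D1:**
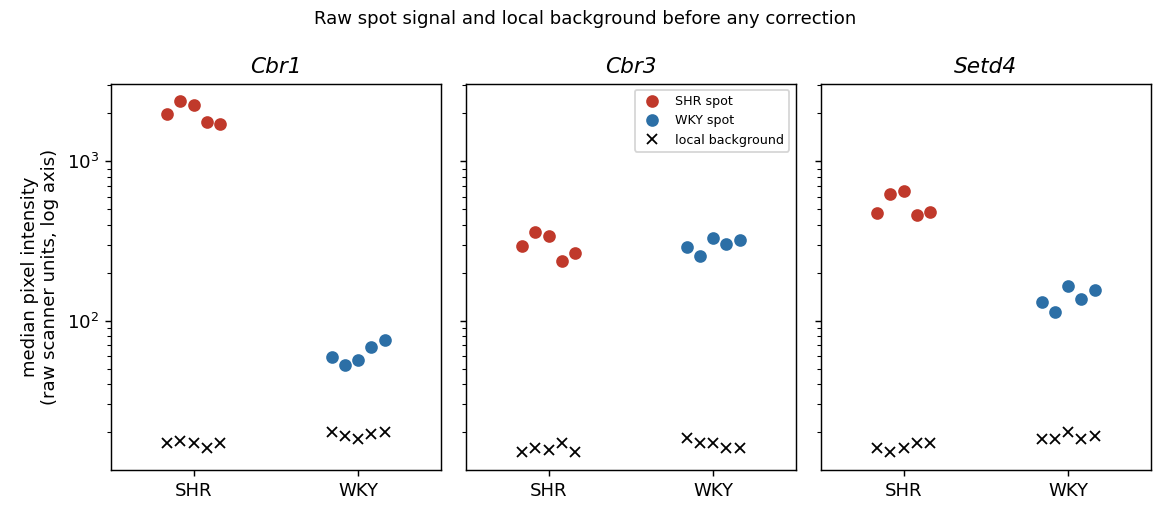
Median pixel intensity of the Cbr1, Cbr3 and Setd4 spots (circles; raw scanner units, log axis) and of their local background (crosses), 1 point per array, with 5 SHR arrays left of 5 WKY arrays in each panel. Cbr1 spots lie 101 to 136 times above local background in SHR and 2.76 to 3.80 times above it in WKY, Setd4 spots also separate by strain, and Cbr3 spots of the strains overlap.

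Setd4, the divergent neighbour of Cbr1, was also higher in every SHR gland. Its probe (A_44_P1039678) read 449, 555, 601, 395 and 445 in SHR 2-1, 2-3, 3-1, 3-3 and 3-4. The Setd4 intensity was 99.0, 78.3, 127, 99.9 and 116 in WKY 1-2, 1-3, 1-5, 4-1 and 4-2. The strains did not overlap, and the raw spot lay 27.1 to 41.7 times above local background in SHR and 6.33 to 8.25 times in WKY, so Setd4 was clearly measured in both. Relative to the 75th percentile, Setd4 averaged −0.03 ± 0.17 in SHR and −2.39 ± 0.11 in WKY (SD, n = 5 each). That is a log2 difference of 2.36 ± 0.10 (SE), or 5.13-fold, with a gap of 2.04 between the lowest SHR and the highest WKY array. The rise ranked 6 among all genes, again by choice of the gene. It was 2.28 within slide 2, 2.39 in the authors' deposited values and 1.87 with normexp followed by quantile normalisation. The spread within a strain was 1.37-fold over the SHR arrays and 1.22-fold over the WKY arrays.

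Cbr3, the paralogue at the far end of the cluster, was close in level between the strains. Its probe (A_64_P043033) had an intensity of 282, 336, 321, 215 and 238 in SHR 2-1, 2-3, 3-1, 3-3 and 3-4. In WKY 1-2, 1-3, 1-5, 4-1 and 4-2 the Cbr3 intensity was 254, 222, 302, 294 and 308. The unscaled values overlapped, and both strains were well above background, at 14.0 to 22.7 times the local background in SHR and 15.1 to 20.03 times in WKY. After scaling, Cbr3 averaged −0.85 ± 0.15 in SHR and −0.97 ± 0.021 in WKY (SD, n = 5 each), a log2 difference of 0.13 ± 0.085 (SE), or 1.09-fold. In 4 of 5 SHR arrays the scaled Cbr3 value lay above all WKY arrays, the exception being SHR 3-1, which lay below all of them, and 52.0% of all genes had a larger difference in size. Without SHR 3-3 the Cbr3 difference was 0.07, within slide 2 it was 0.20, and in the authors' deposited values it was 0.16, with all 5 SHR arrays above the WKY arrays by at least 0.0294. Cbr3 was the steadiest of the 3 genes across WKY, where the highest array was 1.04-fold above the lowest, and spread 1.31-fold over SHR.

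SHR 3-3 gave the highest scaled value of its strain for all 3 genes, 2.52 for Cbr1, 0.25 for Setd4 and −0.63 for Cbr3. Its unscaled intensity was the lowest of the SHR arrays for Setd4 and Cbr3, and this array had the lowest 75th percentile of the 10. What part the scaling has in these values was not tested. Without SHR 3-3 the difference was 6.05 for Cbr1 and 2.29 for Setd4, the lowest values when any 1 array was left out.

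**Figure D2:**
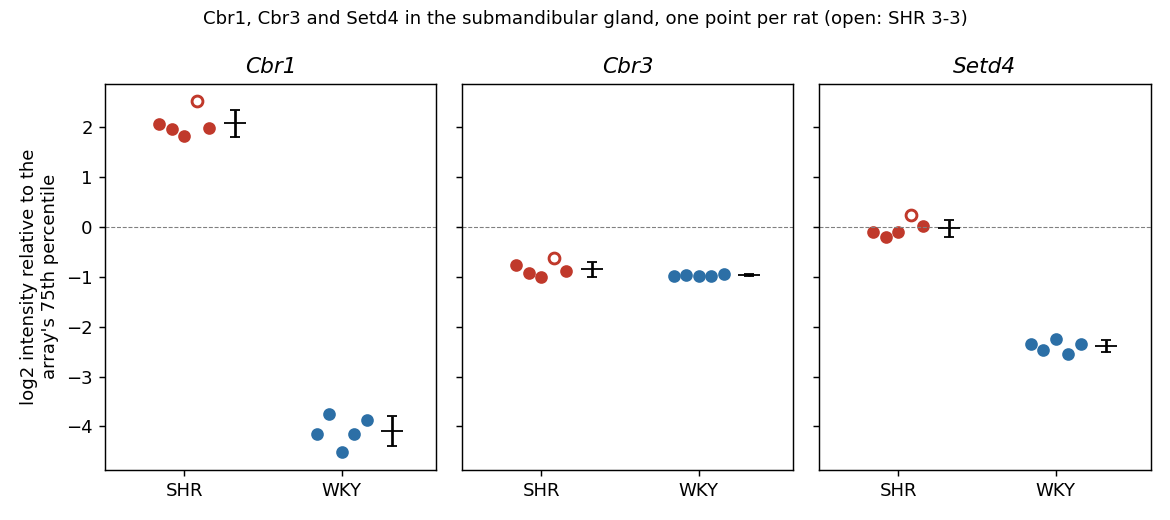
Scaled log2 intensity of Cbr1, Cbr3 and Setd4, 1 point per rat, with SHR left of WKY in each panel; the cross marks the mean and the bars 1 SD (n = 5 per strain), and the open circle is SHR 3-3. The strains are separated by 5.58 for Cbr1 and by 2.04 for Setd4, whereas for Cbr3 the SHR points (−1.01 to −0.63) lie on both sides of the WKY points (−0.995 to −0.95), with 4 above and SHR 3-1 below them.

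The large difference thus lay at the Setd4 and Cbr1 end of the cluster and not at Cbr3, as far as the array covers it. Cbr1l1, Cbr1l2 and Cbr1l3 are annotated as protein coding and had 0 named probes. Cbr1l1 shares most of the Cbr1 start window. The Cbr1l2 window covers only the first part of it, where the 2 genes are nearly the same. Probe sequences were not used here. Whether the Cbr1 probe also binds RNA of these copies was therefore not tested, and the Cbr1 value may include them. Nor was it tested whether the probes of Cbr1, Cbr3 and Setd4 match SHR and WKY RNA equally well. Each of these genes had 1 spot of 1 probe, so no other probe could be compared. Elsewhere in the genome, Cbr2 and Cbr2l1 had 0 probes as well. Cbr4, a mitochondrial carbonyl reductase that takes part in fatty acid synthesis, had 1 probe, with scaled log2 values of −2.25, −1.999, −1.67, −2.27 and −2.21 in the SHR arrays. Cbr4 read −2.14, −1.92, −2.14, −2.03 and −2.11 in the WKY arrays, which lie within the SHR range, and its fold was 0.990 (limma adjusted p = 0.963).

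To see how far along the chromosome the difference reached, the 10 nearest tested genes on each side were read from the fit over all genes. At a limma adjusted p below 0.05, 1 of these 20 neighbours was higher and 1 lower, against 1.51% higher and 2.85% lower (4.36% in all) among all genes tested. Their median log2 difference was 0.08, against −0.02 over all genes. In 4 of 20 the strains did not overlap, against 7.25% of all genes. Neither of the nearest tested genes, 1 on each side, passed. RGD1562683, the nearest on the Setd4 side and known only by its locus name, had a log2 difference of −0.10 (adjusted p = 0.756). Dop1b was the nearest on the Cbr3 side, and its product belongs to a family that works in membrane traffic between endosomes and Golgi. Dop1b read 0.46, 0.54, 1.09, 0.50 and 0.65 in SHR and 0.24, 0.13, 0.27, 0.28 and 0.11 in WKY. The Dop1b arrays did not overlap, and its difference of 0.44 ± 0.12 had an adjusted p of 0.0573. It was past the threshold without SHR 2-1 (adjusted p = 0.0480), SHR 3-1 (0.0485) or SHR 3-3 (0.0471). With the slide as a block, and on slide 2 alone, the Dop1b difference was 0.23 (adjusted p = 0.99995 and 0.834).

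The neighbours that passed were a pair of potassium channel subunit genes on the Setd4 side, and they went in opposite directions. Kcne2, the 7th tested gene away, encodes a small accessory subunit that modifies Kcnq1 and other channels and is known for its part in secretory epithelia. Kcne2 read −2.43, −2.07, −2.07, −2.37 and −2.10 in the SHR arrays, and −4.22, −4.34, −4.91, −4.01 and −4.75 in the WKY arrays. Every SHR value lay above every WKY value, and Kcne2 was 4.72-fold higher (log2 difference 2.24 ± 0.16 SE, limma adjusted p = 7.9e-06). With normexp and quantile normalisation the Kcne2 difference was smaller, at 1.02 (limma adjusted p = 5.5e-05). Kcne1, the 5th gene away, encodes the subunit that slows Kcnq1 currents. Kcne1 read −0.82, −0.91, −0.31, −1.41 and −0.88 in SHR and −0.07, 0.37, 0.95, 1.30 and 0.94 in WKY. It was 2.96-fold lower in SHR (−1.57 ± 0.25, adjusted p = 0.00388), again with no overlap. With the slide as a block, the Kcne1 difference was −1.89 and no longer passed (adjusted p = 0.0737). On slide 2 alone, where SHR has 1 array whose spread is taken from WKY, the differences were −1.89 for Kcne1 and 2.13 for Kcne2. The block difference rests on the same SHR array. The remaining 18 neighbours did not pass; RGD1562683, Runx1, Clic6 and Rcan1 lie between Setd4 and Kcne1, and Smim11 between Kcne1 and Kcne2.

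**Figure D3:**
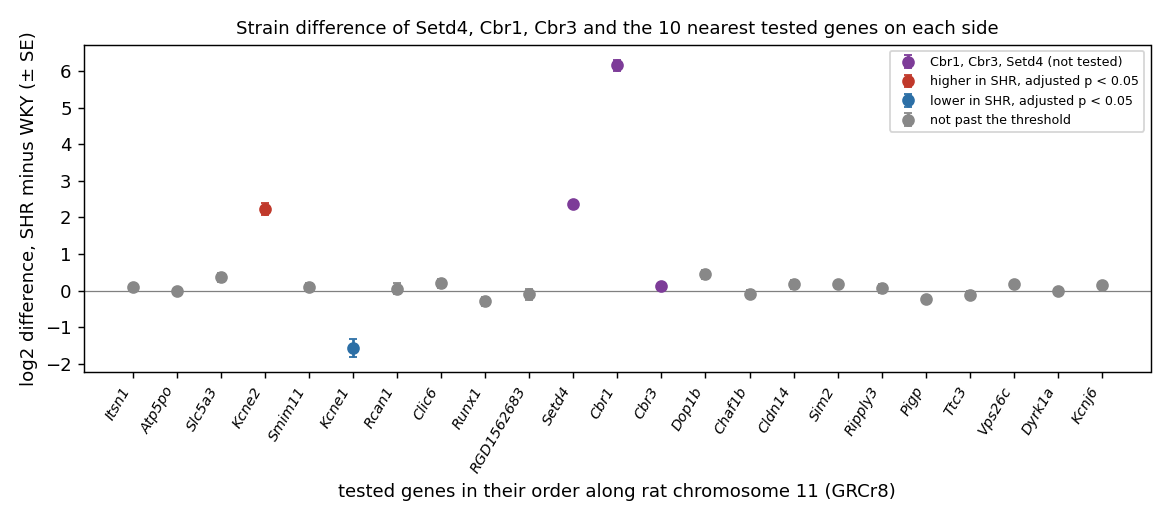
Log2 difference, SHR minus WKY, with its SE (n = 5 per strain) for Setd4, Cbr1, Cbr3 and the 10 nearest tested genes on each side, in chromosome order and not to distance. Cbr1 (6.16) and Setd4 (2.36) stand out at the centre, Kcne2 (2.24) and Kcne1 (−1.57) on the Setd4 side, and the other neighbours lie between −0.30 and 0.44.

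No other enzyme of a list of carbonyl-reducing enzymes and relatives from their families passed the test. The list held 44 short-chain dehydrogenases and aldo-keto reductases, of which 41 were on the array and 40 were tested. By limma 0 were higher and 0 lower, against 4.36% called among all genes, and 3 had an unadjusted p below 0.05. Their differences ran from −1.27 to 0.27 with a median of 0.02, against −0.02 over all genes. The 2 largest were those of aldo-keto reductases that act on steroids. Akr1c14 read −2.45, −2.40, −0.63, −4.37 and −1.57 in SHR and −1.19, −0.92, −1.56, −0.28 and −1.12 in WKY, a difference of −1.27 ± 0.53 (adjusted p = 0.204) with wide spread in SHR. Akr1c19 differed by −0.56 ± 0.34 (adjusted p = 0.374). Without SHR 3-3 the difference was −0.75 for Akr1c14 and −0.22 for Akr1c19. Akr1b1, aldose reductase, which overlaps with Cbr1 in its substrates, differed by −0.06 ± 0.076 (adjusted p = 0.683); it was named after its values had been seen.

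Of the prostaglandin genes, which surround the reaction of Cbr1 on prostaglandin E, 24 of 25 in the list were tested. At a limma adjusted p below 0.05, 0 were higher and 2 lower (8.33% called, against 4.36% of all genes), with a median of −0.10, and 8 had an unadjusted p below 0.05. Ptgs1, the constitutive cyclooxygenase, was −2.76 ± 0.27 in SHR and −2.25 ± 0.083 in WKY (SD, n = 5 each), a difference of −0.51 ± 0.12 SE (adjusted p = 0.0372). Another Ptgs1 probe differed by 0.11 (adjusted p = 0.831). Slco2a1, the transporter that takes prostaglandins into cells, was −3.72 ± 0.18 in SHR and −3.27 ± 0.16 in WKY, a difference of −0.45 ± 0.11 (adjusted p = 0.0381). Both calls depended on single arrays and on the processing. Ptgs1 did not pass when SHR 2-3, SHR 3-1 or any 1 of the 5 WKY arrays was left out (adjusted p up to 0.100). Its difference was −0.33 with the slide as a block (adjusted p = 0.99995) and on slide 2 (0.673), −0.25 with normexp and quantile normalisation (0.0569) and −0.20 with the mean of its probes (0.333). Slco2a1 did not pass when SHR 2-3, 3-1 or 3-4, or WKY 1-3, 1-5, 4-1 or 4-2, was left out, also up to 0.100, nor with quantile normalisation (0.0839), median scaling (0.0517) or the authors' deposited values (0.0792). The Slco2a1 difference was −0.16 with normexp and quantile normalisation (adjusted p = 0.244), and −0.27 with the slide as a block (0.99995) and on slide 2 (0.745). Hpgd, which inactivates prostaglandins, had a log2 difference of −0.21 ± 0.079 (adjusted p = 0.152); it was named after its values had been seen.

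Among genes driven by NRF2, calls were few and went in both directions, at a larger share than among all genes. Of 31 tested of 33 in the list, 2 were higher, 1 was lower and 28 did not pass in limma (9.68% called, against 4.36% of all genes), with a median of 0.003, and 7 had an unadjusted p below 0.05. Srxn1, sulfiredoxin, which reactivates oxidised peroxiredoxins, read 0.00, 0.50, −0.02, −0.05 and 0.12 in SHR and −1.34, −1.02, −0.96, −0.74 and −0.60 in WKY. It was 2.06-fold higher (1.04 ± 0.15, adjusted p = 0.00152). Abcc2, an efflux pump for conjugates, was −1.34 ± 0.066 in SHR and −1.72 ± 0.081 in WKY (SD, n = 5 each), a difference of 0.38 ± 0.076 SE (adjusted p = 0.0146). Gstm1, a glutathione S-transferase, read −2.55, −2.36, −2.02, −3.41 and −2.38 in SHR and −0.61, −0.59, −0.69, −0.25 and −0.52 in WKY. Gstm1 was 4.03-fold lower (−2.01 ± 0.21, adjusted p = 1.5e-04). With the slide as a block the 3 differences were 0.76, 0.39 and −2.06 and none passed (adjusted p = 0.506, 0.882 and 0.103). These rest on SHR 2-1 as the only SHR array, and those of Abcc2 and Gstm1 were no smaller in size than over all arrays. Nfe2l2, which encodes NRF2 itself, differed by −0.39 ± 0.20 (adjusted p = 0.303), and Nqo1, the quinone reductase often read as its marker, by 0.19 ± 0.14 (adjusted p = 0.460); both were named after their values had been seen.

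Of 36 SET-domain and other lysine methyltransferases, the family to which Setd4 belongs, 21 were on the array and tested. In limma 1 was higher and 0 were lower, or 4.76%, near the 4.36% called among all genes, with a median of 0.04; 4 had an unadjusted p below 0.05. Suv39h1, which methylates histone H3 in heterochromatin, was −2.35 ± 0.099 in SHR and −2.71 ± 0.14 in WKY (SD, n = 5 each), a difference of 0.36 ± 0.091 SE (adjusted p = 0.0473). Its other probes differed by −0.10 (adjusted p = 0.744) and 0.13 (0.459). Suv39h1 did not pass when SHR 2-1, 2-3, 3-3 or 3-4, or WKY 1-2, 1-3, 4-1 or 4-2, was left out (adjusted p up to 0.125). Nor did it pass with the slide as a block (0.30, adjusted p = 0.99995), on slide 2 (0.731), with the mean of its probes (0.13, adjusted p = 0.410) or without the filter on dim probes (0.0510).

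**Figure D4:**
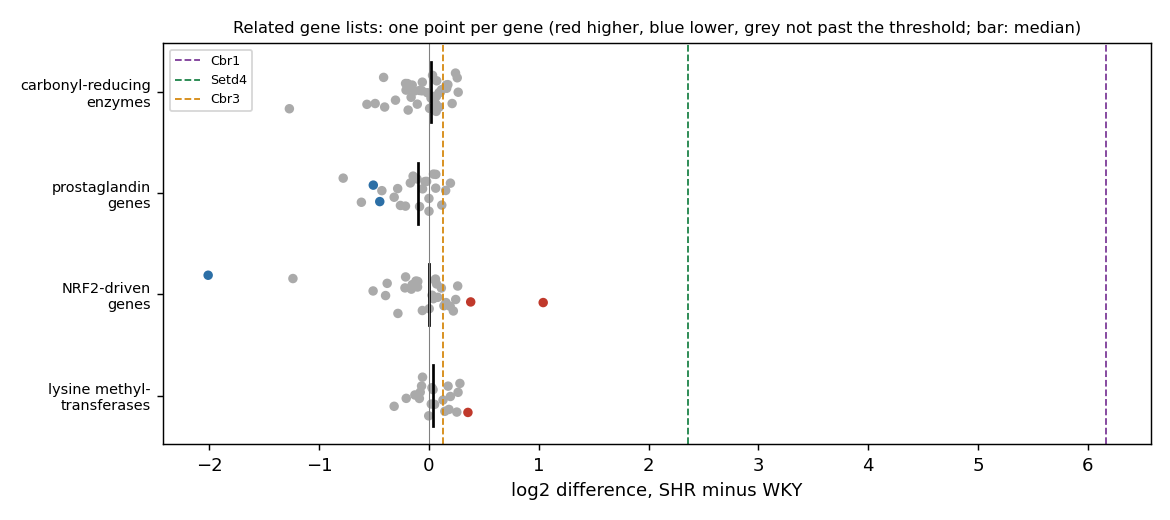
Log2 difference, SHR minus WKY, of each tested gene in 4 related lists (points; black bar: list median), with dashed lines at Cbr1, Setd4 and Cbr3. List medians lie between −0.10 and 0.04, and the highest value in any list is 1.04 (Srxn1), below the lines of Setd4 (2.36) and Cbr1 (6.16).

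The genes whose profiles were most like those of the 3 genes were named by the root mean square distance of their log2 values over the 10 arrays, each gene centred on its own mean, among 14680 genes. For Cbr1 the nearest were Rhag (distance 1.21), a Rhesus family ammonia transporter, Agtrap (1.25), a protein that binds the angiotensin II receptor, Slc16a4 (1.44), of the monocarboxylate transporter family, Tnnt2 (1.71), cardiac troponin T, and Setd4 (1.92). No other gene rose by as much as Cbr1, and these fell short of it in size: Rhag differed by 3.86, Agtrap by 3.72, Slc16a4 by 3.36 and Tnnt2 by 3.11. The nearest to Setd4 were Efnb2 (0.29), which encodes ephrin B2, Kcne2 (0.36), Rtel1 (0.41), a DNA helicase, Msln (0.46), mesothelin, and Prnp (0.49), the prion protein. Efnb2 was well above background on 3 of 5 WKY arrays, and another Rtel1 probe had a log2 difference of −0.54 (adjusted p = 0.0838). Kcne2 was named both as a tested neighbour of Setd4 and as a near profile, by the same strain difference in each case. Cbr3 was number 2782 in distance from Setd4 and number 3013 from Cbr1. With normexp and quantile normalisation the log2 difference was 1.87 for Setd4, 1.02 for Kcne2 and 0.67 for Efnb2. For Cbr3 the nearest were Ap5m1, Sptb, Elac2, Adprh and Ceacam4, at 0.038 to 0.046. Like Cbr3, they differed little between the strains (log2 difference 0.10 to 0.14). Each had a larger SD in WKY than Cbr3, at 0.038 to 0.068 against 0.021. Likeness over 10 arrays of 2 strains mainly restates the size of a strain difference.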

How the data were processed

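Messenger RNA of 10 submandibular glands was read on one-colour Agilent arrays, 5 from SHR and 5 from WKY; the labels give each array's strain and a separate rat. Per the file headers, the deposited scanner values are processed intensities from Agilent Feature Extraction 11.0.1.1, background-subtracted and not normalised between arrays. A further table the authors deposited has 30423 probes on a log2 scale, and the steps behind it are not given in the sources.

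From the log2 intensities, the 75th percentile of the same array was subtracted. Outlier spots (0 of them of Cbr1, Cbr3 or Setd4) were set to missing before the spots of a probe were averaged. This left 45 missing values among the probes kept. Of 30367 probes, 29266 were kept for being well above background on 5 or more of 10 arrays. Symbols came from RefSeq accessions (the GRCr8 gene list), which matched 17935 of 19109, and 12362 probes had no name. The brightest kept probe stood for a gene. limma 3.58.1 (R 4.3.3, the data.table package, version 1.17.8) compared the strains over 14711 genes, two-sided, with Benjamini-Hochberg adjustment and a threshold of 0.05; the fit was tested on simulated data. Sequences were read with Python 3.11.15, numpy 2.4.6, pandas 2.3.3 and biopython 1.88, and figures drawn with matplotlib 3.10.9.

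Genes named were Cbr1, Cbr3 and Setd4; of 20 neighbours, those past the threshold and the nearest on each side; in each of 4 lists up to 4 members past the threshold, or 2 values where none passed; and the 5 nearest profiles of each gene. The members and lists were chosen with earlier results of these data known. Alternatives were quantile normalisation, median scaling, normexp (offset 50, on the median signal, with quantile normalisation), the authors' values, other filters, the mean of a gene's probes, outlier spots kept, the slide as a block, slide 2 alone and leaving out each array.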

Additional observations from a re-analysis of the deposited data

Results flagged for a closer look

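Of 56 strain groups of 5 arrays, from the 28 genes named by the rule, 2 held an array far from the rest, by a gap of more than 0.71 of the group's range; chance flags about 1 in 20 such groups. Both were SHR 3-3, in genes whose profiles are near those of Cbr1 and Setd4. Tnnt2 was 2.04 in SHR 3-3 (log2 relative to the 75th percentile), and the nearest other SHR array was 3.73. Msln was 0.13 in SHR 3-3 and 1.01 in the nearest other SHR array. SHR 3-3 had the lowest 75th percentile of the 10 arrays, and its part in these values was not tested. For Cbr1, Cbr3 and Setd4 no array met this rule.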

How the results depend on the processing

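Cbr1 was 4.65 to 6.25, Setd4 1.87 to 2.40 and Cbr3 0.07 to 0.20 (log2 difference) over 20 alternatives each, and every value stayed positive. Not all of these are separate checks. The other filters, the mean of probes and keeping outlier spots could not change these values. Each gene had 1 spot of 1 probe, without an outlier mark and well above background on every array. The slide block and slide 2 alone gave the same difference, which rests on SHR 2-1 as the only SHR array. The lowest Cbr1 and Setd4 values, 4.65 and 1.87, came with normexp followed by quantile normalisation; leaving out 1 array gave 6.05 to 6.25, 2.29 to 2.40 and 0.07 to 0.17. The count over all genes, 641, was 44 with the slide as a block, 52 on slide 2 alone, which rests on 1 SHR array, and 343 to 724 with 1 array left out (371 without WKY 1-2, 343 without WKY 1-3, 416 without WKY 4-1). Lower genes made up 65.4% of the calls, and 54.6% with quantile normalisation, 53.5% with median scaling, 55.9% with normexp followed by quantile normalisation and 50.6% with the authors' values. Prostaglandin genes called, 2, numbered 1 with quantile normalisation, median scaling, the authors' values or the mean of a gene's probes, 0 with normexp and quantile normalisation, the slide block or slide 2 alone, and 0 to 3 with 1 array left out. The lysine methyltransferase count, 1, was 0 without a filter on dim probes, with the mean of probes, the slide block or slide 2, and 0 to 1 with 1 array left out; the 1 without SHR 3-3 was lower and is not Suv39h1. NRF2 genes called, 3, numbered 0 with the slide block and 1 on slide 2. Neighbours called, 2, numbered 1 in both of these and 2 to 4 with 1 array left out (4 without SHR 3-1). RGD1562683, −0.10, was 0.35 with the slide block and on slide 2, and −0.18 to 0.016 with 1 array left out (above 0 without SHR 3-1). The cause of these changes was not tested. The list of carbonyl-reducing enzymes and their relatives stayed at 0 called in each leave-one-out. No paired analysis was possible because the strains share no replicate number.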
